A study of Homo sapiens with 18 samples.

Results

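The glutathione and thioredoxin system was followed through 10 genes, GCLC, GCLM, GSS, GSR, SLC7A11, CHAC1, TXN, TXNRD1, SRXN1 and NQO1. They were chosen by name, most of them for roles in glutathione synthesis, glutathione breakdown, cystine import and thioredoxin reduction, with earlier results of these data known. All 10 were among the 58336 genes of the count table and all 10 passed the filter on low counts, as did 19393 genes in all. The cells were HEK293A, an adherent human embryonic kidney line, either with both LATS1 and LATS2 knocked out (KO) or wild type (WT). LATS1 and LATS2 are the Hippo pathway kinases that restrain the coactivators YAP and TAZ. Each genotype was kept for 4 h in 250 uM ZnCl2, in 50 uM CdCl2 or in water, with 3 stranded mRNA libraries in each of the 6 groups. The labels name a single knockout genotype and do not say whether it is 1 clone, so genotype and line cannot be told apart. The design text calls the replicates biological without saying what was separate, so the p-values rest on the spread of these libraries, which may be technical.

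Glutathione is a cysteine-containing tripeptide that binds metal ions and reduces peroxides. Cystine enters the cell through the exchanger whose transport subunit is SLC7A11, is reduced to cysteine, and is joined to glutamate by glutamate-cysteine ligase (catalytic subunit GCLC, modifier subunit GCLM) before GSS adds glycine. CHAC1 degrades glutathione in the cytosol, and GSR regenerates it from its oxidized form with NADPH. The thioredoxin branch runs in parallel: TXNRD1 reduces the small dithiol protein TXN, and SRXN1 repairs overoxidized peroxiredoxins. NQO1, a quinone reductase that can use NADPH, is listed with them but belongs to neither branch. The transcription factor NRF2 (gene NFE2L2) is the textbook activator of most of these genes, and ATF4, the effector of the integrated stress response, is that of CHAC1 and SLC7A11.

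Promoter sequence of 3 members with strong changes is shown because it carries letters known to be bound by these factors. RefSeq windows (GRCh38.p14) of 250 bases before to 50 bases after a gene's start were available for 7 members, with 2 starts for TXNRD1, and not for GSS, GSR and SLC7A11. They were searched on both strands for the antioxidant response element bound by NRF2 (TGACNNNGC), the C/EBP-ATF response element bound by ATF4 (TGATGNAA), the AP-1 site (TGANTCA) and the metal response element (TGCNCNC), where N is any base. Capitals mark the matches to the first pair of motifs, and each stretch is given in the direction of the gene.
GCLM, chr1:93909436-93909484: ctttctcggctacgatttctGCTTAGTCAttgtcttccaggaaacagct
TXNRD1 upstream start, chr12:104215660-104215708: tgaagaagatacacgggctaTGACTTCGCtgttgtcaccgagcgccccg
TXNRD1 downstream start, chr12:104286910-104286958: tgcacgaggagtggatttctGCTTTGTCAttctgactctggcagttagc
CHAC1, chr15:40953242-40953289: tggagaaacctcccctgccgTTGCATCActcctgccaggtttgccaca
Counted from the start, with negative positions before it, the match lay at -34 to -26 in GCLM, which is on the minus strand. CHAC1 and TXNRD1 are on the plus strand, with the matches at -209 to -202 in CHAC1, and at -99 to -91 and -102 to -94 from the upstream and the downstream start of TXNRD1. A further match of TXNRD1 spanned its upstream start. The antioxidant letters occurred in 2 of the 7 members and in 13.3% of the 35116 windows of all genes, and the C/EBP-ATF letters in 1 of 7 and 3.62%. The AP-1 letters occurred in 0 of 7 members and in 7.71% of windows, and the short metal response letters in 5 of 7 and 55.9%. The member counts are by gene, over 8 windows, while the percentages are by window, so the units differ. A match describes the letters in this window and is not evidence of binding.

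Total counts ran from 25478614 to 37148046 per library. Replicates varied by a median of 3.93% per gene beyond counting noise (biological coefficient of variation). LATS1 lay at 44.0 to 54.5 CPM (counts scaled to one library size with TMM factors) in the KO libraries and at 77.2 to 97.2 CPM in the WT libraries. LATS2 was not lower in KO in water: its KO libraries held 18.2 to 18.9 CPM and its WT libraries 16.2 to 16.5 CPM. Counts per gene do not show whether the transcript is intact. Of 7 markers of the HEK293 line 5 were above 1 CPM in every group, while PAX2 and NEFM stayed below 1 CPM. The summed level of these markers was 2720.3 to 3035 CPM in KO and 830.0 to 1034 CPM in WT libraries. Over all libraries KRT8 ran from 269 to 1853 CPM, KRT18 from 149 to 868 CPM and VIM from 174 to 498 CPM, so a few genes dominate this sum. The sum of 6 fibroblast markers, mostly COL1A1 and COL3A1, was 51.6 to 63.6 CPM in metal-treated KO and 8.83 to 12.7 CPM in metal-treated WT libraries. The part of these differences in the genotype results was not tested. Blood, keratinocyte and hepatocyte markers summed to at most 3.99 CPM, with KRT1 and HBB at 0 counts. Replicate 3 of zinc-treated WT cells stood apart from the others of its group, its chi-square over degrees of freedom being 4.96 and 5.04 against them and theirs 1.88.

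The metals raised the genes for cystine import, glutathione breakdown, the GCLM subunit and thioredoxin reductase in both genotypes, while GSS, GSR and TXN moved by at most 0.19 in either direction on the log2 scale. In cadmium-treated KO cells 8 of 10 members rose and 1, GSS, fell, where 23.2% of all tested genes rose and 23.8% fell (edgeR's quasi-likelihood test, called at an adjusted p under 0.05 by Benjamini-Hochberg over all tested genes). In zinc-treated KO cells 8 rose and 1, GSS, fell, beside 28.2% and 27.7% of all tested genes. In cadmium-treated WT cells 9 rose and 1, GSS, fell, beside 30.0% and 31.7%. In zinc-treated WT cells 7 rose and 2, GSS and GSR, fell, beside 29.4% and 32.0%.
Rises of at least 2-fold were found for 5 members with cadmium in KO (4.90% of all tested genes), 3 with zinc in KO (7.19%), 5 with cadmium in WT (9.62%) and 3 with zinc in WT (9.17%). The median log2 fold change of the members was 1.05 with cadmium and 0.70 with zinc in KO, and 0.95 and 0.67 in WT, where the median of all tested genes lay between -0.01 and 0.00. The zinc and the cadmium comparison of a genotype share their water libraries. Because the members were chosen with earlier results of these data known, these counts and medians describe them and do not test them as a set. The plot of levels by library shows all values.

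**Figure D1:**
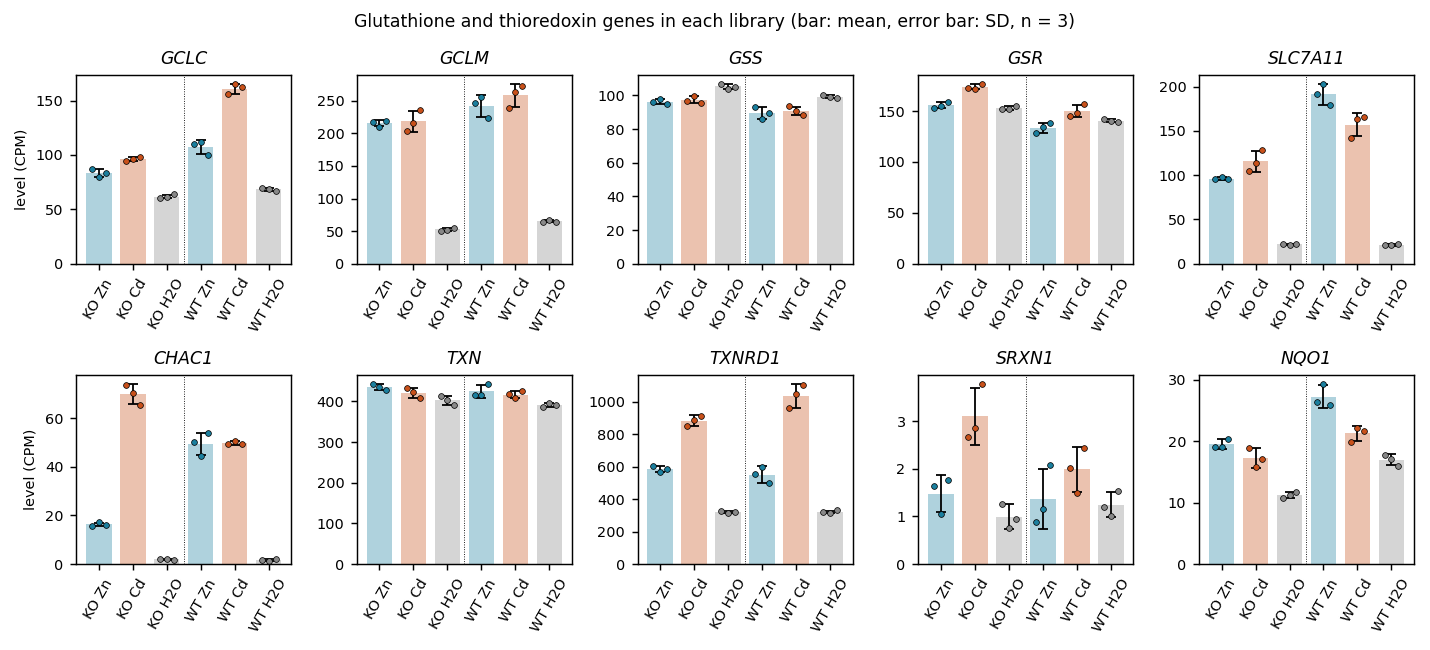
Level in CPM (linear axis from 0) of the 10 genes in each of the 18 libraries, with KO groups left of WT groups and metals left of water. Points are libraries, bars the mean and error bars the SD of 3 libraries. CHAC1 reached 70.0 CPM in cadmium-treated KO cells and 16.3 CPM in zinc-treated KO cells, while TXN stayed between 387 and 443 CPM in all libraries.

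The cystine importer mRNA rose with both metals, and less in KO than in WT. SLC7A11 (ENSG00000151012, chromosome 4, 138164097 to 138242349, minus strand) stood at 95.6, 97.6 and 95.3 CPM in zinc-treated KO libraries, 105, 114 and 128 CPM in cadmium-treated ones and 22.6, 21.3 and 22.2 CPM in water. In WT it stood at 192, 203 and 179 CPM with zinc, 142, 163 and 166 CPM with cadmium and 20.9, 20.7 and 22.5 CPM in water. Every metal library lay above every water library, and for each metal every KO library lay below every WT library. The log2 fold change with zinc was 2.12 ± 0.06 (approximate SE) in KO and 3.16 ± 0.06 in WT, a difference of -1.03 ± 0.09 (edgeR quasi-likelihood test of the interaction, adjusted p = 1.84e-11). With cadmium it was 2.39 ± 0.06 in KO and 2.88 ± 0.06 in WT, a difference of -0.49 ± 0.09 (edgeR, adjusted p = 5.59e-05). In water the genotypes did not pass the test, with a log2 difference of 0.04 and a 95% interval of -0.10 to 0.19. Cadmium over zinc was 0.27 ± 0.05 in KO and -0.28 ± 0.05 in WT on the log2 scale (edgeR, adjusted p = 5.17e-05 and 6.75e-06), and the change of order was not tested. The KO value was 0.18 without KO cadmium replicate 3 and still passed. The antisense gene SLC7A11-AS1 overlaps 8.97% of its exon bases, and SLC7A11 counts on the transcribed strand alone were 104.4 to 109.5% of the counts used.

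Of the 2 subunits of glutamate-cysteine ligase, GCLM rose by 1.89 to 2.05 on the log2 scale in the 4 metal comparisons, while GCLC rose by 0.43 to 1.24. GCLM (ENSG00000023909, chromosome 1, 93885205 to 93909456, minus strand) stood at 217, 209.9 and 219 CPM with zinc, 204, 216 and 235 CPM with cadmium and 50.1, 51.9 and 55.5 CPM in water in KO. In WT it stood at 247, 256 and 223 CPM with zinc, 239, 264 and 273 CPM with cadmium and 64.4, 67.1 and 64.5 CPM in water. The metal and water libraries did not overlap in either genotype. Its log2 fold changes ran from 1.89 ± 0.05 (zinc, WT) to 2.05 ± 0.05 (cadmium, KO). The responses did not pass the test of a difference between genotypes, at 0.14 with a 95% interval of 0.01 to 0.28 for zinc and 0.06 with an interval of -0.07 to 0.20 for cadmium (edgeR, adjusted p = 0.142 and 0.548). GCLM was lower in KO than in WT in water by a log2 difference of -0.31 ± 0.05 (edgeR, adjusted p = 3.90e-06), and also with zinc (-0.17 ± 0.04) and with cadmium (-0.25 ± 0.04).

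GCLC (ENSG00000001084, chromosome 6, 53497341 to 53616970, minus strand) stood at 87.2, 79.8 and 83.1 CPM with zinc, 94.5, 95.8 and 98.3 CPM with cadmium and 60.4, 61.2 and 63.7 CPM in water in KO. In WT it stood at 110.4, 112 and 99.9 CPM with zinc, 156, 165 and 162 CPM with cadmium and 69.5, 68.8 and 66.8 CPM in water. No group overlapped its neighbour in level, and the order was KO water, WT water, KO zinc, KO cadmium, WT zinc, WT cadmium. The cadmium response was 0.64 ± 0.04 in KO and 1.24 ± 0.04 in WT, a difference of -0.60 ± 0.06 (edgeR, adjusted p = 9.99e-11). The zinc response was 0.43 ± 0.04 in KO and 0.65 ± 0.04 in WT, a difference of -0.22 ± 0.06 (edgeR, adjusted p = 0.00329).

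Per kilobase of exon, the ratio of GCLM to GCLC was higher with either metal than in water. It was 4.12 ± 0.136 with zinc, 3.62 ± 0.180 with cadmium and 1.36 ± 0.0341 in water in KO (SD, n = 3). In WT it was 3.59 ± 0.0392 with zinc, 2.56 ± 0.121 with cadmium and 1.52 ± 0.0419 in water. The KO libraries lay above the WT libraries with either metal and below them in water, with no overlap. No test was made of this ratio.

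GSS (ENSG00000100983, chromosome 20, 34928433 to 34956027, minus strand), which completes the tripeptide, fell slightly in all 4 metal comparisons. It averaged 96.3 ± 1.51 CPM with zinc, 97.3 ± 2.10 CPM with cadmium and 105 ± 1.75 CPM in water in KO, against 89.5 ± 3.65, 90.9 ± 2.46 and 99.2 ± 0.770 CPM in the same order in WT (SD, n = 3). The log2 fold changes lay between -0.15 ± 0.03 (zinc, WT) and -0.11 ± 0.03 (cadmium, KO), with edgeR adjusted p of 0.000271 to 0.00589. GSS was higher in KO than in WT by 0.08 to 0.11 on the log2 scale under each treatment, with edgeR adjusted p of 0.00651 to 0.0287. That call was lost in water without WT water replicate 2 or 3, KO water replicate 1 or 3, WT cadmium replicate 2 or KO zinc replicate 2 (adjusted p of 0.0503 to 0.104), with zinc without WT zinc replicate 2 (0.113), and with cadmium without WT cadmium replicate 3 or KO cadmium replicate 2 (0.116 and 0.0694). In water it was also lost without a filter on low counts (0.08, edgeR, adjusted p = 0.120).

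The mRNA of the glutathione-degrading enzyme had the largest fold change of the 10 genes in each of the 4 metal comparisons. CHAC1 (ENSG00000128965, chromosome 15, 40952962 to 40956519, plus strand) stood at 15.8, 17.2 and 15.9 CPM in zinc-treated KO libraries, 73.9, 70.6 and 65.5 CPM in cadmium-treated ones and 1.90, 2.22 and 1.63 CPM in water. In WT it stood at 50.2, 44.7 and 53.8 CPM with zinc, 49.6, 50.8 and 49.5 CPM with cadmium and 1.57, 1.45 and 2.04 CPM in water. Zinc and cadmium gave overlapping levels in WT, whereas in KO every cadmium library lay far above every zinc library. The log2 fold change with zinc was 3.10 ± 0.11 in KO and 4.85 ± 0.10 in WT, a difference of -1.76 ± 0.19 (edgeR, adjusted p = 3.97e-09). With cadmium it was 5.20 ± 0.09 in KO and 4.86 ± 0.10 in WT, and the difference of 0.34 did not pass (95% interval -0.03 to 0.71, edgeR, adjusted p = 0.190). Cadmium over zinc was thus 2.11 ± 0.06 in KO (edgeR, adjusted p = 1.77e-26) and 0.01 with a 95% interval of -0.10 to 0.12 in WT. The water level rests on 41 to 72 counts per library, so the folds over water are less certain than the differences between metal groups.

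**Figure D2:**
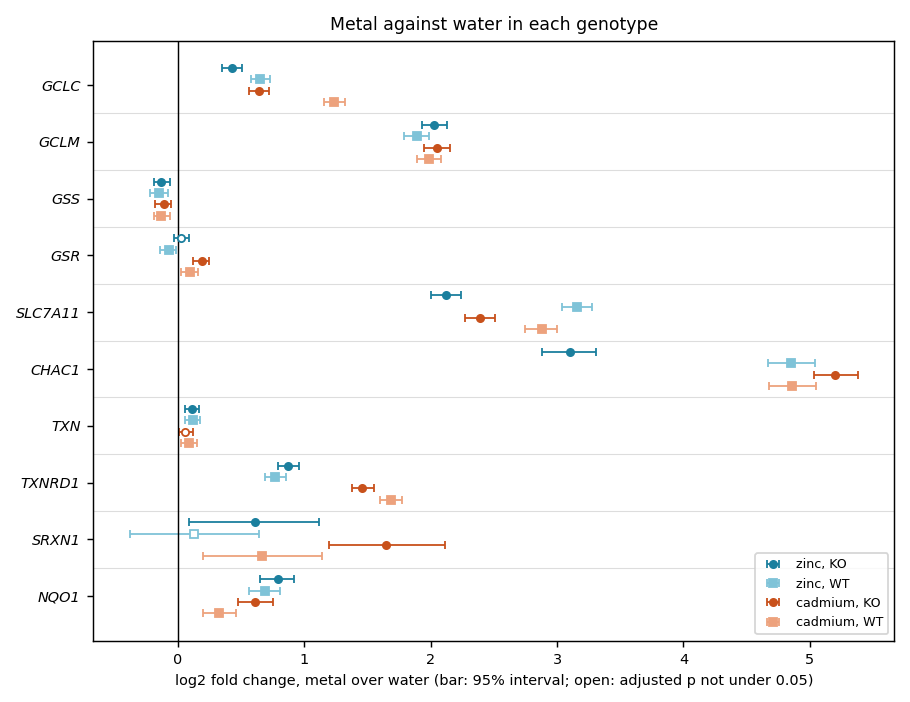
Log2 fold change of metal over water for each of the 10 genes, in KO (circles, dark) and WT (squares, light), for zinc (blue) and cadmium (orange), with approximate 95% intervals and open symbols where the test did not pass. CHAC1 lies at 3.10 for zinc in KO and between 4.85 and 5.20 in the other 3 comparisons, and GSS lies left of 0 in all 4.

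The reductase that recycles glutathione moved little. GSR (ENSG00000104687, chromosome 8, 30678061 to 30727999, minus strand) averaged 156 ± 3.16 CPM with zinc, 174 ± 2.39 CPM with cadmium and 153 ± 1.65 CPM in water in KO. In WT it averaged 133 ± 5.08 CPM with zinc, 150.1 ± 6.53 CPM with cadmium and 141 ± 1.27 CPM in water (SD, n = 3). With cadmium it rose by 0.19 ± 0.03 in KO and 0.10 ± 0.03 in WT (edgeR, adjusted p = 6.20e-06 and 0.0105), but with library size alone as scaling these values were 0.07 and -0.02 and neither passed (adjusted p = 0.0530 and 0.528). The WT rise was 0.06 without WT cadmium replicate 3 and 0.06 without a filter on low counts (edgeR, adjusted p = 0.133 and 0.208). The fall with zinc in WT, -0.07 ± 0.03, was at the threshold (edgeR, adjusted p = 0.0497) and was lost under most alternatives, with adjusted p of 0.104 without WT water replicate 1, 0.0642 without replicate 2 and 0.0730 without replicate 3 of that group, and 0.289 and 0.0902 without WT zinc replicates 1 and 2. Its responses did not pass the test of a difference between genotypes, at 0.10 for zinc and 0.09 for cadmium (adjusted p = 0.105 and 0.139), but did without WT zinc replicate 3 (0.13, adjusted p = 0.0376) and without WT cadmium replicate 3 (0.12, adjusted p = 0.0465). GSR was higher in KO than in WT under each treatment, by 0.22 ± 0.03 with zinc, 0.21 ± 0.03 with cadmium and 0.12 ± 0.03 in water on the log2 scale (edgeR, adjusted p of 1.37e-07 to 0.00120).

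Thioredoxin and its reductase differed: the reductase mRNA rose, more with cadmium than with zinc, and TXN stayed close to its level in water. TXNRD1 (ENSG00000198431, chromosome 12, 104215779 to 104350305, plus strand) stood at 606, 569 and 584 CPM with zinc, 847, 889 and 913 CPM with cadmium and 325, 317 and 319 CPM in water in KO. In WT it stood at 554, 599 and 499 CPM with zinc, 959, 1045 and 1104 CPM with cadmium and 321, 316 and 329.7 CPM in water. Within a genotype the 3 treatments did not overlap, with water lowest and cadmium highest. Cadmium over zinc was 0.59 ± 0.04 in KO and 0.91 ± 0.04 in WT on the log2 scale (edgeR, adjusted p = 9.82e-15 and 1.84e-20). The cadmium response was 1.46 ± 0.04 in KO and 1.69 ± 0.04 in WT, a difference of -0.22 ± 0.06 (edgeR, adjusted p = 0.00427). The zinc response was 0.87 ± 0.04 in KO and 0.77 ± 0.04 in WT, and the difference of 0.10 did not pass (95% interval -0.02 to 0.22, edgeR, adjusted p = 0.254), though it reached 0.16 and adjusted p = 0.0322 without WT zinc replicate 2.

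TXN (ENSG00000136810, chromosome 9, 110243811 to 110256640, minus strand) had the highest level per kilobase of exon of the 10 genes, at 353 ± 9.82 CPM per kilobase in KO and 343 ± 4.45 in WT in water, against 47.8 ± 0.640 and 48.0 ± 1.02 for TXNRD1 in the same groups (SD, n = 3). Its level in CPM averaged 436 ± 6.67 with zinc, 421 ± 12.0 with cadmium and 403 ± 11.2 in water in KO, against 425 ± 15.3, 416 ± 8.98 and 391 ± 5.08 in the same order in WT. All neighbouring groups in the order of levels overlapped. The log2 changes of 0.06 to 0.12 passed in 3 of the 4 metal comparisons, and in the other, cadmium in KO, without KO water replicate 1 or KO cadmium replicate 3 (adjusted p = 0.0423 and 0.0352), but with library size alone as scaling the 4 values were -0.05 to 0.06, none passed, and the direction turned for cadmium in both genotypes. Cadmium in KO also passed with the 5 CPM filter, with counts of 1 strand and with only the compared groups (edgeR, adjusted p = 0.00881, 0.0299 and 0.0234). Without a filter on low counts cadmium in WT did not pass (0.06, edgeR, adjusted p = 0.175). KO over WT did not pass in any treatment (log2 differences of 0.02 to 0.04, 95% intervals within -0.04 to 0.10). With library size alone it passed in all 3, at 0.06 to 0.09. In water it also passed with the 5 CPM filter and with only the compared groups (0.06 and 0.07, edgeR, adjusted p = 0.0492 and 0.0209). The ratio of TXNRD1 to TXN per kilobase was 0.229 ± 0.00590 with zinc, 0.358 ± 0.0234 with cadmium and 0.135 ± 0.00301 in water in KO, and 0.221 ± 0.0269, 0.424 ± 0.0283 and 0.140 ± 0.00408 in WT.

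SRXN1 (ENSG00000271303, chromosome 20, 646615 to 653370, minus strand) had few counts, 24 to 110 per library. The gene AL121758.1 on the same strand overlaps 85.0% of its exon bases, so the counts may hold only part of its reads, and its level may not be compared with that of other genes. It stood at 1.64, 1.05 and 1.76 CPM with zinc, 2.67, 2.87 and 3.79 CPM with cadmium and 1.27, 0.752 and 0.954 CPM in water in KO. In WT it stood at 0.880, 1.16 and 2.08 CPM with zinc, 2.03, 1.50 and 2.45 CPM with cadmium and 1.19, 1.02 and 1.53 CPM in water. The cadmium-treated KO libraries lay above all others, and the other groups overlapped their neighbours in level. Cadmium raised it by 1.65 ± 0.23 in KO (edgeR, adjusted p = 1.39e-07) and by 0.67 ± 0.24 in WT (adjusted p = 0.0155). The WT call was lost without WT water replicate 2 or WT cadmium replicate 3 (0.53 and 0.49, adjusted p = 0.0851 and 0.117). The difference of the cadmium responses, 0.99 ± 0.34 (edgeR, adjusted p = 0.0270), fell below the threshold without any of 5 single libraries, with values of 0.79 to 0.96. In cadmium SRXN1 was higher in KO than in WT by 0.62 ± 0.20 (edgeR, adjusted p = 0.00708), which did not pass without WT cadmium replicate 2 or KO cadmium replicate 3 (0.46 and 0.45, adjusted p = 0.0654 and 0.0766). The zinc response was 0.61 ± 0.26 in KO (edgeR, adjusted p = 0.0471), lost without KO water replicate 2 or 3 or KO zinc replicate 1 or 3 (adjusted p of 0.114 to 0.197). In WT it was 0.13 (95% interval -0.38 to 0.64) and turned to -0.31 without WT zinc replicate 3, and neither passed.

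NQO1 (ENSG00000181019, chromosome 16, 69706996 to 69726951, minus strand) was called lower with cadmium than with zinc in both genotypes. It stood at 19.1, 19.0 and 20.4 CPM with zinc, 18.9, 15.7 and 17.0 CPM with cadmium and 10.8, 11.3 and 11.7 CPM in water in KO, against 26.4, 29.3 and 25.9 CPM, 19.9, 22.2 and 21.6 CPM and 17.8, 17.1 and 16.0 CPM in the same order in WT. Both metals lay above water in each genotype without overlap, and every KO library lay below every WT library of the same treatment. Zinc raised it by 0.79 ± 0.07 in KO and 0.69 ± 0.06 in WT, and cadmium by 0.61 ± 0.07 and 0.33 ± 0.07. Cadmium over zinc was -0.17 ± 0.07 in KO (edgeR, adjusted p = 0.0286) and -0.36 ± 0.06 in WT (adjusted p = 5.16e-06), and the KO value lost its call without KO zinc replicate 3 or KO cadmium replicate 2 or 3 (adjusted p of 0.0715 to 0.164), with DESeq2 (adjusted p = 0.0586) and with counts of the transcribed strand (-0.15, adjusted p = 0.0715), and was -0.26 without KO cadmium replicate 1. KO over WT was -0.58 ± 0.07 in water, -0.48 ± 0.06 with zinc and -0.29 ± 0.07 with cadmium (edgeR, adjusted p of 5.38e-09 to 0.000158). The cadmium response differed by 0.28 ± 0.10 between genotypes (adjusted p = 0.0246), which did not pass without WT water replicate 1, WT cadmium replicate 1, KO water replicate 1 or KO cadmium replicate 1 (adjusted p of 0.0645 to 0.123). NQO1 counts on the transcribed strand alone were 106.4 to 111.8% of those used. The antisense gene AC092115.2 overlaps 17.7% of its exon bases and has 0 counts in every library, and its part in this difference was not tested.

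Set against WT, KO cells in metal had less SLC7A11, GCLC, GCLM and NQO1 and more GSS and GSR. In zinc, 2 members were higher in KO and 5 lower, beside 34.0% and 32.7% of all tested genes, and in cadmium 4 were higher and 5 lower, beside 32.6% and 34.5%. In water 2 were higher and 3 lower in KO (30.8% and 32.1%), the higher ones being GSR and GSS and the lower ones NQO1, GCLM and GCLC. The call of GCLC in water was lost with library size alone as scaling (-0.09, adjusted p = 0.0586, against -0.14 and 0.00293). CHAC1 was lower in KO with zinc by -1.61 ± 0.06 and higher with cadmium by 0.49 ± 0.05 on the log2 scale (edgeR, adjusted p = 2.51e-23 and 1.87e-10). The zinc response was smaller in KO for 3 members, CHAC1, SLC7A11 and GCLC, and larger for 0 (10.5% and 14.1% of all tested genes). The cadmium response was smaller in KO for GCLC, SLC7A11 and TXNRD1 and larger for SRXN1 and NQO1, 3 and 2 members beside 14.1% and 14.0%. Cadmium exceeded zinc in 6 members and fell below it in 1 in KO (24.0% and 24.3%), and in 3 and 2 members in WT (27.3% and 25.0%). In WT, GCLM and SRXN1 also passed as higher with cadmium without KO cadmium replicate 3 (0.10 and 0.54, adjusted p = 0.0451 and 0.0489). GCLM passed at 0.14 without WT zinc replicate 2 and at 0.15 without WT cadmium replicate 1, and SRXN1 at 0.98 without WT zinc replicate 3 and at 0.70 without WT cadmium replicate 2. The counts of KO against WT in every treatment are near the background, as are those of cadmium against zinc in WT. The zinc response is too when both directions are counted, with 3 members beside 4767 of the 19393 tested genes. These counts are no result about the members as a group.

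**Figure D3:**
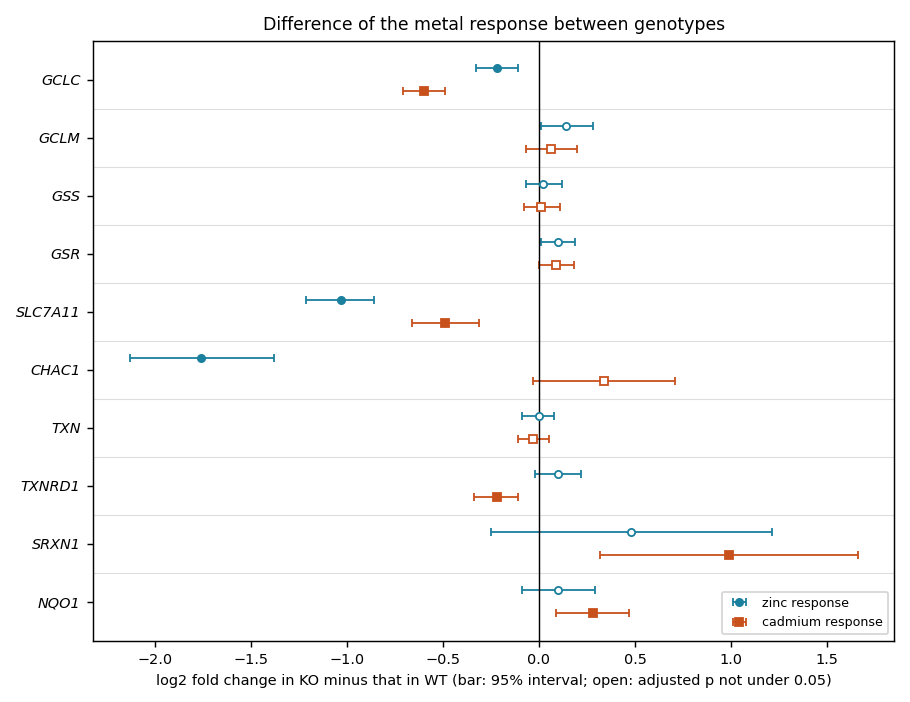
Log2 fold change in KO minus that in WT for the zinc (blue circles) and the cadmium response (orange squares) of each gene, with approximate 95% intervals and open symbols where the test did not pass. CHAC1 and SLC7A11 lie at -1.76 and -1.03 for zinc, while GCLC lies further left for cadmium (-0.60) than for zinc (-0.22).

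The genes whose 6 group means were most like those of a member were found by the root mean square difference of centred log2 levels (log2 of CPM + 0.5) among tested genes of at least 5 CPM. For CHAC1, whose means spanned 5.02 log2 units, they were ATF3 (0.631), SLC30A1 (0.642) and DDIT3 (0.769). For SLC7A11, with a span of 3.13, they were MCL1 (0.176), DUSP8 (0.230) and DNAJB4 (0.274). For TXNRD1, with a span of 1.69, they were FAM219A (0.131), MATR3 (0.160) and ARID5A (0.163), and for GCLC, with a span of 1.38, OSGIN2 (0.062), ZDBF2 (0.064) and ZNF121 (0.066). Among the members themselves GCLM and SLC7A11 were nearest to each other (0.398), as were GCLC and TXNRD1 (0.330). A gene with a small span has close neighbours among many genes that change little, as TXN has in RPS7 (0.014).

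Genes of the wider pathway moved in both directions. Of 35 tested genes of glutathione use and conjugation, 11 rose and 5 fell with zinc in KO (31.4% and 14.3%, beside 28.2% and 27.7% of all tested genes). With cadmium in KO 11 rose and 5 fell (31.4% and 14.3%, beside 23.2% and 23.8%). In WT 9 rose and 9 fell with zinc (25.7% each, beside 29.4% and 32.0%), and with cadmium 7 rose, a smaller share than the 30.0% of all tested genes, and 15 fell (42.9%, beside 31.7%). The shares of this list that rose with zinc in both genotypes are near the background. The list medians were -0.07 to 0.01 on the log2 scale. SLC3A2, the heavy chain that carries SLC7A11 to the membrane, averaged 709.9 ± 18.3 CPM with zinc, 506 ± 16.7 CPM with cadmium and 283 ± 3.85 CPM in water in KO, against 1210.1 ± 66.2, 1122 ± 25.9 and 795 ± 17.8 CPM in the same order in WT. In water it was lower in KO by -1.49 ± 0.03 (edgeR, adjusted p = 1.15e-31), where SLC7A11 itself did not pass. Its zinc response was larger in KO by 0.72 ± 0.04 (adjusted p = 1.12e-15), the opposite sign to that of SLC7A11. GGT1, which cleaves extracellular glutathione, was higher in KO in water (18.7 ± 0.286 against 6.68 ± 1.01 CPM) and the microsomal transferase MGST1 lower (35.3 ± 0.892 against 77.3 ± 2.61 CPM).

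Of 23 tested thioredoxin and peroxiredoxin genes, 9 rose and 8 fell with zinc in KO (39.1% and 34.8%, beside 28.2% and 27.7% of all tested genes) and 6 rose and 6 fell with cadmium in KO (26.1% each, beside 23.2% and 23.8%). In WT 7 rose and 8 fell with zinc (30.4% and 34.8%, beside 29.4% and 32.0%), and 4 rose and 11 fell with cadmium (17.4% and 47.8%, beside 30.0% and 31.7%). The counts with cadmium in KO and with zinc in WT are near the background. SESN2, a stress-induced sestrin, averaged 145 ± 6.04 CPM with zinc, 226 ± 6.98 CPM with cadmium and 36.5 ± 0.619 CPM in water in KO, against 532 ± 17.4, 363 ± 1.54 and 39.0 ± 1.21 CPM in the same order in WT. Like CHAC1 it was higher with cadmium than with zinc in KO, while in WT it was higher with zinc. TXNIP, the inhibitor that binds reduced thioredoxin, fell, with log2 fold changes of -1.09 ± 0.08 with zinc and -1.24 ± 0.08 with cadmium in KO, and -2.16 ± 0.11 and -1.91 ± 0.10 in WT. Of 14 NADPH-supply genes, 4 rose and 6 fell with zinc in KO (28.6% and 42.9%, beside 28.2% and 27.7%) and 5 rose and 5 fell with cadmium (35.7% each, beside 23.2% and 23.8%). In WT 4 rose and 7 fell with zinc (28.6% and 50.0%, beside 29.4% and 32.0%), and 4 rose and 6 fell with cadmium (28.6% and 42.9%, beside 30.0% and 31.7%). The shares that rose with zinc in both genotypes and with cadmium in WT are near the background. Malic enzyme ME1 had the highest called change of this list among genes of at least 5 CPM in each metal comparison, 0.25 ± 0.04 and 0.38 ± 0.04 in KO and 0.55 ± 0.04 and 0.74 ± 0.04 in WT for zinc and cadmium.

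Of 6 regulators, 4 rose and 2 fell with zinc in KO (66.7% and 33.3%, beside 28.2% and 27.7% of all tested genes). With cadmium in KO 4 rose and 1 fell (66.7% and 16.7%, beside 23.2% and 23.8%). In WT 4 rose and 2 fell with zinc (66.7% and 33.3%, beside 29.4% and 32.0%). With cadmium in WT 3 rose and 2 fell (50.0% and 33.3%, beside 30.0% and 31.7%). The shares that fell in WT are near the background. DDIT3 rose in KO to 79.1 ± 6.40 CPM with zinc and 80.4 ± 6.09 CPM with cadmium, against 8.12 ± 0.191 CPM in water. In WT it rose to 239 ± 12.6 CPM with zinc and 198 ± 7.46 CPM with cadmium, against 12.1 ± 0.861 CPM in water. KEAP1, which targets NRF2 for degradation, changed by -0.49 ± 0.03 with zinc and -0.05 with cadmium (95% interval -0.12 to 0.01) in KO, and by -0.59 ± 0.03 and -0.40 ± 0.03 in WT. BACH1, a repressor that binds the same element as NRF2, rose by 1.46 ± 0.05 with zinc and 0.99 ± 0.05 with cadmium in KO, and by 1.82 ± 0.05 and 1.73 ± 0.05 in WT. NFE2L1, an activator related to NRF2, had log2 fold changes of -0.59 ± 0.03 with zinc and -0.31 ± 0.03 with cadmium in KO, and of -0.74 ± 0.03 and -0.59 ± 0.03 in WT, all past the test. NFE2L2 and ATF4 are given in full as the best-known activators of the members, a choice made after their values were seen. NFE2L2 rose by 1.10 ± 0.04 with zinc and 1.07 ± 0.04 with cadmium in KO, and by 1.35 ± 0.04 and 1.70 ± 0.04 in WT, and the cadmium response was smaller in KO by -0.63 ± 0.06 (edgeR, adjusted p = 1.81e-11). ATF4 rose by 0.72 ± 0.03 and 0.65 ± 0.03 in KO, and in WT by 0.54 ± 0.03 with zinc, whereas the 0.05 with cadmium did not pass (adjusted p = 0.106).

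**Figure D4:**
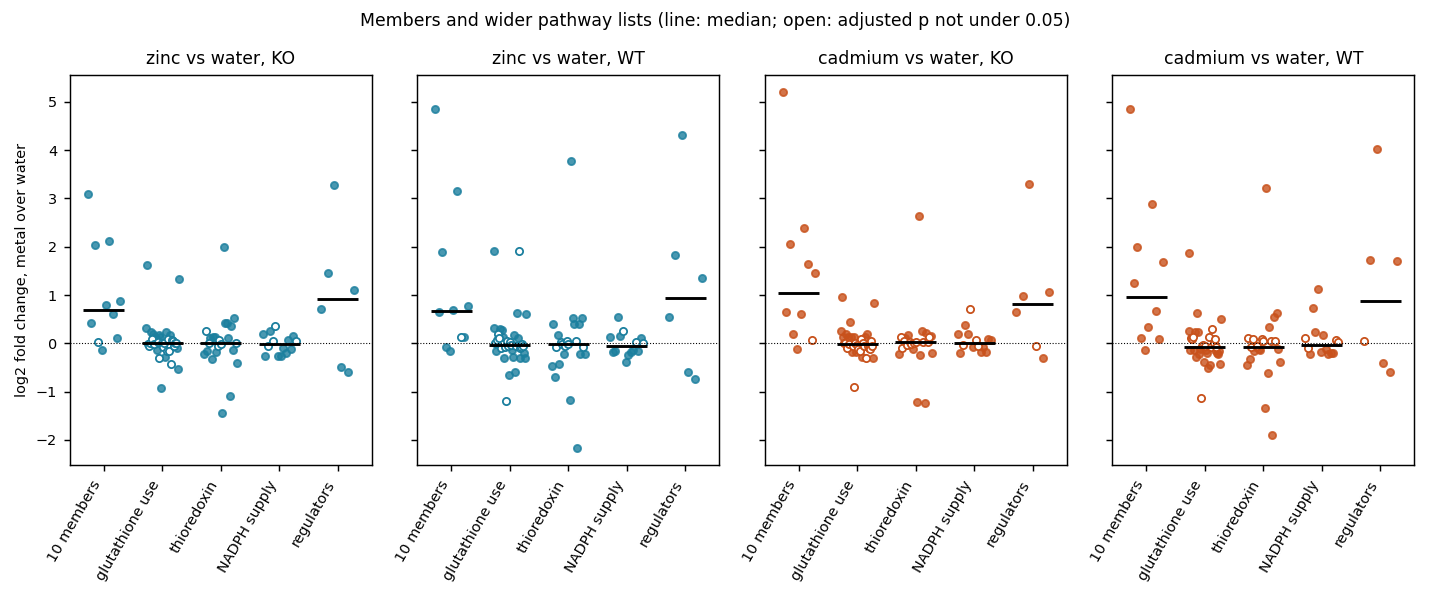
Log2 fold change of metal over water for the 10 genes and for the lists of glutathione use, thioredoxin, NADPH supply and regulator genes, 1 point a gene, with filled points past the test and a line at the list median. The medians of the glutathione use, thioredoxin and NADPH lists lie within -0.07 to 0.03, and those of the 10 genes between 0.67 and 1.05.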

How the data were processed

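Messenger RNA was sequenced from 18 libraries (6 groups of 3), made with a stranded mRNA kit per the labels' protocols. The authors deposited raw read counts per gene. STAR, hg38 and GRCh38.p13 are named in the submitters' processing notes, and the annotation, versions and read filters were not given in the sources used here. In all 18 sample tables the deposited counts of both strands equalled the series table, and those counts were used. Of 58336 gene IDs 58216 were found in GENCODE 29, which gave symbols, positions and exon lengths. Reads were counted without regard to strand, so a gene overlapped by an antisense gene can lose or share reads.

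Counts were filtered with filterByExpr (minimum count 10), leaving 19393 genes, scaled by TMM and fitted with edgeR 4.0.16 (limma 3.58.1, R 4.3.3) as 6 group means over all 18 libraries. Contrasts were tested by quasi-likelihood with Benjamini-Hochberg adjustment over all tested genes at 0.05. The approximate SE is the log2 fold change divided by the square root of F. Tables and figures used Python 3.11.15, pandas 2.3.3 and matplotlib 3.10.9. The fit was tested on simulated data in which few genes changed, in zinc-treated WT only. Far more genes were called in the real data, so that run cannot decide between ways of scaling. The members and the wider lists were chosen with earlier results of these data known. From each wider list at most the 2 highest and 2 lowest called genes of at least 5 CPM per comparison with water or between genotypes were named. SOD2 and GSTT1 were not used. Alternatives were library size alone, upper quartile factors, no filter, 5 CPM in 3 libraries, counts of 1 strand, only the compared groups, a replicate block, DESeq2 1.42.0 and leaving out each of the 18 libraries.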

Additional observations from a re-analysis of the deposited data

Results flagged for a closer look

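Responses of 5 members to cadmium and 3 to zinc differed between KO and WT by the test of the difference itself. That test was the edgeR interaction, called at an adjusted p under 0.05 over all tested genes. Of all 19393 tested genes, 5449 passed it for cadmium and 4767 for zinc, so the zinc count is near the background. The counts describe the members and do not test them as a set. With zinc, the log2 response in KO minus that in WT was -1.76 for CHAC1, -1.03 for SLC7A11 and -0.22 for GCLC. With cadmium it was -0.60 for GCLC, -0.49 for SLC7A11, -0.22 for TXNRD1, 0.28 for NQO1 and 0.99 for SRXN1. The differences of NQO1 and SRXN1 did not pass without single libraries, 4 for NQO1 and 5 for SRXN1.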

How the results depend on the processing

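When counts were scaled by library size alone, all tested genes together had a median of -0.13 with cadmium in WT and -0.12 with cadmium in KO, and 2 called values turned: GSR with cadmium in WT was -0.02 and TXN -0.03. The share of called genes that were higher was 28.8% with cadmium in KO (49.3% with TMM), 37.2% with zinc in KO (50.4%) and 35.5% with cadmium in WT (48.6%). Over all alternatives, 2753 values stayed on their side of the threshold, 61 lost a call in the same direction, the 2 that turned lost theirs too, and 33 gained one. GSR with zinc in WT lost its call under 17 alternatives and SRXN1 with zinc in KO under 9. SRXN1 had no value with the 5 CPM filter. Deviations of same-numbered replicates were weakly correlated (-0.0249 to 0.0864 over 15 pairs of groups, 0 of them with all values over 0.1), so the numbers were not taken to pair the libraries. In 30 of 45 cases a library was nonetheless best correlated with its own number, where 15 are expected by chance, a hint of pairing from the data and not from the design. With the replicate block, TXNRD1 in KO over WT with zinc (0.09), and GCLM (0.10) and SRXN1 (0.54) in cadmium over zinc in WT, passed the test. The block was not needed for TXNRD1, which also passed with library size alone, no filter and the 5 CPM filter (edgeR, adjusted p = 0.0115, 0.0232 and 0.0485). TXNRD1 passed too when WT zinc replicate 2, WT cadmium replicate 1, KO zinc replicate 2 or KO cadmium replicate 1 was left out alone. SRXN1 also passed with no filter (0.51, edgeR, adjusted p = 0.0328). Counts of called members without single libraries were 8 to 9 with zinc and 9 to 10 with cadmium in KO, and 8 to 9 and 8 to 10 in WT. All genes called were then 9943 to 11096 with zinc and 8215 to 9365 with cadmium in KO. In WT they were 11286 to 12071 and 11213 to 12240, out of 19868 to 19976 tested genes. Low counts limit SRXN1 in all groups and CHAC1 in water.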
